A study of Homo sapiens with 12 samples.

Results

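The transcriptome of Control CWR22Rv1 cells was described from the 3 libraries that the labels place in the Control group, of 12 libraries in the series. CWR22Rv1 is an established human prostate carcinoma line, derived from a xenograft that had relapsed after castration of the host mouse, and it grows without added androgen. The Control cells carry exogenous Cas9 with no guide RNA, so that they share the nuclease and its selection with edited cells but have no targeted gene. They were grown in RPMI with 10% fetal bovine serum and puromycin at 1 µg/mL, and RNA was taken after 48 h of culture. The other groups of the series carry exogenous MEIS1 (LV-MEIS1), edited HOXB13 (HOXB13ko) or both, and were not used here. The 3 libraries are cultures of a single derived line, so their spread is that between cultures and not that between independently derived lines, and the cell surroundings of a tumor are absent from the model.

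Poly(A)-selected RNA was sequenced as single-end reads of 50 bases, and values are CPM, the reads of a gene scaled to a common library size. Levels come from the whole culture, so a smaller share of cells with a transcript and less of it per cell cannot be told apart. A longer transcript yields more fragments, so ratios between genes are given as CPM per kb of transcript, and an order by CPM is named as one. The length used was that of the canonical transcript. With the union of all exons 36 of 39 gene pairs kept their direction and with the median transcript length 35 did, but the size of many ratios moved, and several of these values are given beside the ratios they touch. All 13951 genes listed were used, and their CPM summed to between 957424 and 964946 per library. By mean CPM 73.0% of them reached 10 CPM, 16.2% reached 100 CPM and 0.452% reached 1000 CPM. Counts of list members at these levels, given below, are to be read beside those shares. Steps between the lowest values gave estimates of 17200000, 23100000 and 25900000 reads for replicates 1, 2 and 3. At those depths 3 reads are worth between 0.116 and 0.175 CPM, and between 9 and 10 genes per library lay under that floor. With 3 libraries an exact paired permutation test cannot go below p = 0.25, so levels are given with their SD and no test was made.

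In the prostate, the luminal epithelial cells that line the glands respond to androgen and secrete the kallikrein proteases, while basal cells, rare neuroendocrine cells and the stroma express other sets of genes. FOXA1 and HOXB13 are transcription factors that mark and maintain luminal cells. Most prostate carcinomas keep the luminal keratins KRT8 and KRT18 and lack basal cells.

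Control cells carried a luminal set of transcripts. Of 15 luminal markers 13 were listed, all 13 at 10 CPM or more and 11 at 100 CPM or more, and their median was 110 CPM per kb, against 8.63 CPM per kb for all listed genes with a length. The list took 0.461%, 0.481% and 0.467% of the CPM in the 3 libraries. FOLH1, which encodes prostate-specific membrane antigen, had 625, 615 and 620.1 CPM. Its SD was 5.19 CPM. The pioneer factor FOXA1 had 387, 395 and 376 CPM. HOXB13 stood at 196 ± 17.1 CPM (SD, n = 3) and SLC45A3, the transporter known as prostein, at 160 ± 15.8 CPM. In all of these genes the highest library lay within 1.5 times the lowest. TMPRSS2, a serine protease gene under androgen control, was at 12.4 CPM per kb, where HOXB13 was at 64.4 CPM per kb. ACPP, encoding prostatic acid phosphatase, was lowest at 3.87 CPM per kb. The remaining luminal markers, MSMB and TRPM8, were not listed.

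The kallikreins were the most abundant secretory genes of the list per kb. KLK4, which encodes kallikrein 4, had 479, 546 and 541 CPM and reached 369 ± 26.3 CPM per kb (SD, n = 3). KLK3, encoding prostate-specific antigen, had 178, 173 and 195 CPM, and KLK2, its neighbour and closest relative, had 282, 285 and 295 CPM. Per kb, KLK3 lay below KLK4 by 1.57 ± 0.12 on the log2 scale (SD, n = 3), a 2.96-fold difference, and the ranges of the libraries were apart. Per kb KLK3 lay above KLK2 by 0.29 ± 0.06 on the log2 scale with ranges apart, but this order rests on the transcript length. With lengths taken from the union of all exons the ratio was -0.21, and with the median transcript length it was -0.87. Gene-level values do not separate spliced forms, and reads that match both KLK2 and KLK3 were divided between them upstream.

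Markers of other cell types were mostly not listed or low. Of 12 basal markers 2 were listed. These were CDH3, encoding P-cadherin, with 67.6, 75.3 and 68.3 CPM, and DST, a cytoskeletal linker, with 68.2 ± 5.11 CPM (SD, n = 3). With the median transcript length the basal median was 71.6 CPM per kb in place of 9.29, and the luminal median was 211. The defining basal genes TP63, KRT5 and KRT14 were not listed. Of 8 club and hillock markers PIGR alone was listed, at 1.12 ± 0.33 CPM. Among endothelial markers ENG alone was listed, at 5.00 CPM, with 7 of 8 not listed. CD4 was the only immune marker listed, at 7.72 CPM, with 10 of 11 not listed, PTPRC among them. The immune list median of 2.53 CPM per kb became 12.9 with the median transcript length. A listed gene had only to pass the authors' filter in one group of the series, so a low gene may be listed because of other groups, and a gene not listed had few counts in all groups or no symbol in the table.

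**Figure D1:**
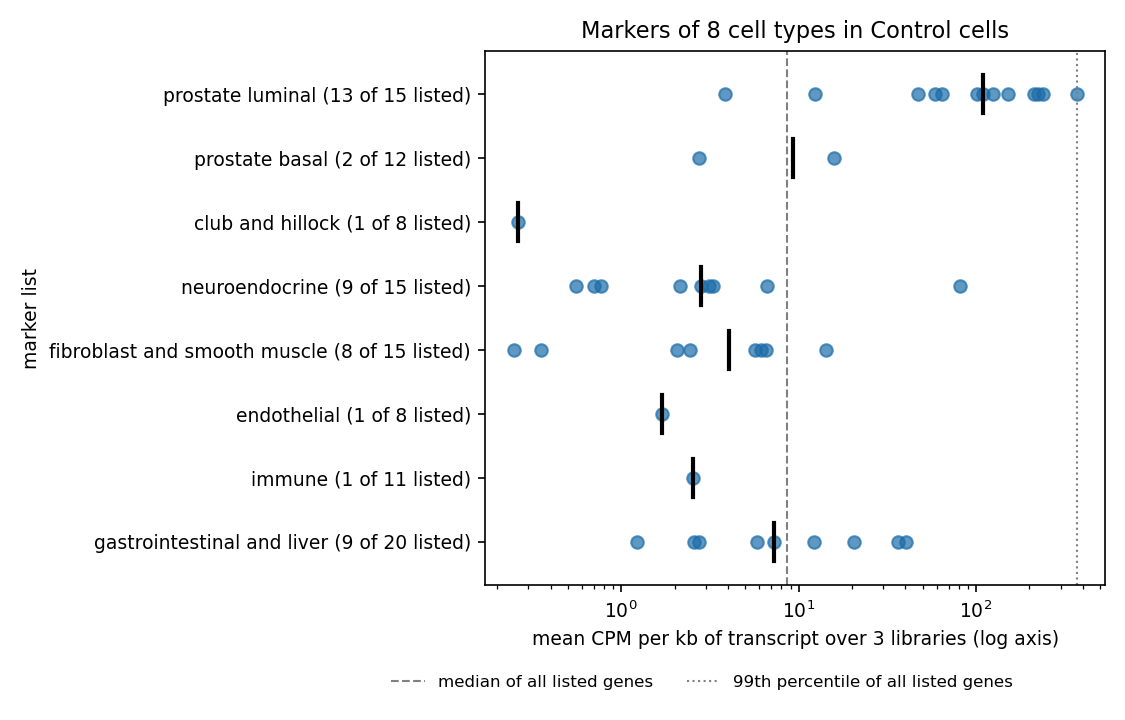
Mean CPM per kb of transcript over the 3 Control libraries (log axis) for each listed marker of 8 cell types, with a black bar at the median of each list and the share of markers listed beside its name. The 13 luminal markers have a median of 110 CPM per kb, and the medians of the other lists lie between 0.262 and 9.29 CPM per kb with the canonical transcript length.

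Genes of the neuroendocrine lineage showed an uneven pattern. ENO2, which encodes neuron-specific enolase and is also a glycolytic isozyme, had 182, 195 and 185 CPM and reached 81.6 CPM per kb. SYP, encoding the vesicle protein synaptophysin, had 17.0, 17.0 and 14.4 CPM. SRRM4, a splicing factor of neurons that is used by neuroendocrine tumors, had 26.8, 27.4 and 29.3 CPM. Of the granin genes, CHGB was at 6.93 ± 0.64 CPM, SCG3 at 9.82 ± 0.75 CPM and SCG2 at 5.19 ± 0.24 CPM (SD, n = 3). CHGA, NCAM1, INSM1, NEUROD1 and FOXA2 were not listed, so that 9 of 15 markers were listed and 3 of them reached 10 CPM. The list took 0.0270% ± 0.00065 of the CPM.

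Stromal genes were present at low levels. FBLN1, encoding the matrix protein fibulin-1, had 39.9, 44.2 and 40.1 CPM. VIM, the intermediate filament of mesenchymal cells, had 14.6, 14.2 and 10.8 CPM, and COL1A1, the main collagen chain of fibroblasts, had 13.6, 14.1 and 15.7 CPM. COL1A2 and COL3A1, usually expressed with COL1A1 in fibroblasts, were not listed. In all, 8 of 15 fibroblast and smooth muscle markers were listed, 4 of them at 10 CPM or more.

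A set of genes known from gut and liver epithelium was also found, with 9 of 20 markers listed and a median of 7.30 CPM per kb. VIL1, encoding the microvillus protein villin, had 238, 238 and 234 CPM, and the transmembrane mucin MUC13 had 114, 120.4 and 116 CPM. The nuclear receptor gene HNF4G had 24.6 ± 2.81 CPM (SD, n = 3), while HNF4A was not listed. ALB, encoding serum albumin, had 28.1, 30.1 and 25.8 CPM. The CV of these genes lay between 0.969% and 11.4%, and CDX2, KRT20, APOA1, APOB, TTR and SERPINA1 were not listed.

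Keratins showed the simplest pattern of the families examined. Of 26 keratin genes 4 were listed. KRT8 had 364, 437 and 400.5 CPM and KRT18, its filament partner, had 269, 321 and 305 CPM. Per kb they differed by 0.09 ± 0.03 on the log2 scale (SD, n = 3), and their ranges overlapped. KRT19, another keratin of simple epithelia, was 62.3 ± 7.46 CPM per kb, below KRT18 by 1.77 on the log2 scale, and KRT10 was 3.28 CPM per kb. The KRT8 and KRT18 genes lie side by side on chromosome 12 and their annotated spans overlap on opposite strands. With lengths from the union of all exons, KRT8 per kb lay below KRT18, at a log2 ratio of -0.74.

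The epithelial character extended to cell junctions, where 26 of 27 genes were listed and 24 reached 10 CPM. CDH1, encoding E-cadherin, had 359, 348 and 327 CPM, while CDH2, encoding N-cadherin, had 6.28, 5.54 and 6.05 CPM. The log2 ratio of CDH1 over CDH2 per kb was 5.59 ± 0.11 (SD, n = 3). CLDN7, encoding a claudin of tight junctions, was the highest of the list at 109 CPM per kb, and CTNNA1, encoding the alpha-catenin that links cadherins to actin, followed at 99.7 CPM per kb. Of 25 transcription factors tied to the epithelial state 18 were listed. Among those reported here, TBX3, a T-box factor, and GATA2, a zinc finger factor, had 436, 417 and 401 CPM and 273, 299 and 261 CPM, and GRHL2, a grainyhead factor, had 94.4, 88.6 and 88.2 CPM. The epithelial splicing factors ESRP1 and ESRP2 were both present, with ESRP1 below ESRP2 by 0.74 ± 0.09 on the log2 scale per kb. Of the factors known for driving mesenchymal change, ZEB1, SNAI1, SNAI2 and TWIST2 were not listed, ZEB2 was at 1.55 CPM, and TWIST1 had 10.1, 10.4 and 9.55 CPM.

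HOX genes encode homeodomain factors that mark position along the body axis, and the members of higher paralog number belong to its posterior end, where the prostate forms. Of 39 HOX genes 27 were listed, and HOXB13 alone made up most of the CPM of its cluster. The HOXB genes took 51.5% ± 1.70 of all HOX CPM, the HOXC genes 28.5% ± 1.31 and the HOXA genes 19.9% ± 0.72 (SD, n = 3). Of the 9 HOXD genes HOXD9 alone was listed, with 0.407, 0.692 and 0.887 CPM. By paralog group, the genes numbered 9 to 13 took 73.2% ± 1.10 of the HOX CPM, those numbered 5 to 8 took 19.97% ± 0.80 and those numbered 1 to 4 took 6.84% ± 0.48. HOXC10 was next to HOXB13 at 18.1 ± 1.39 CPM per kb, below it by 1.83 ± 0.17 on the log2 scale with ranges apart, and by 0.52 with the median transcript length. HOXC12 and HOXC6 followed at 14.6 and 13.7 CPM per kb, and their ranges overlapped. HOXA13, the HOXA relative of HOXB13, had 24.1, 22.5 and 23.8 CPM, and HOXB13 exceeded it 13.7-fold per kb.

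**Figure D2:**
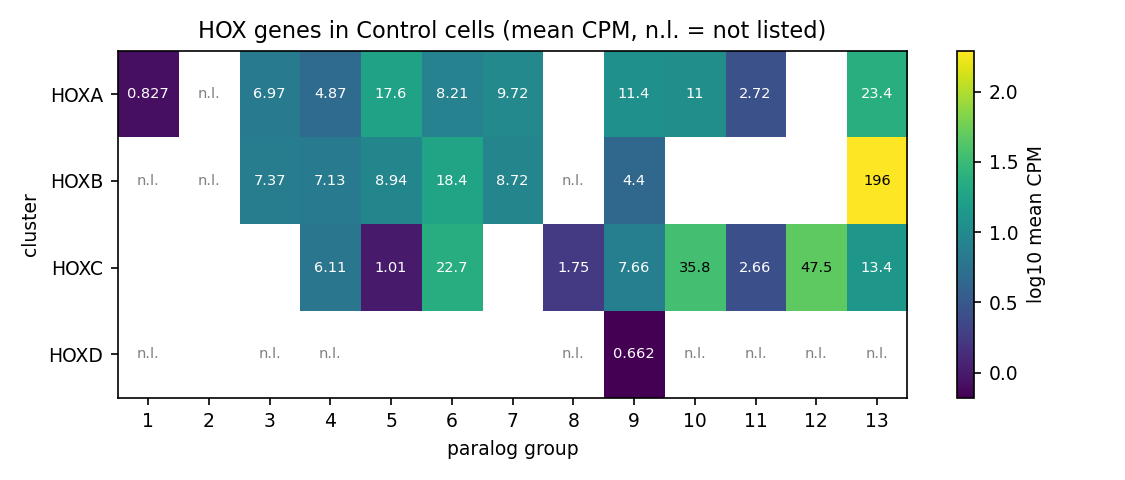
Mean CPM over the 3 Control libraries for each HOX gene, by cluster (rows) and paralog group (columns), coloured by log10 of the mean CPM; n.l. marks genes not listed, and an empty position has no human gene in that cluster. HOXB13 has 196 CPM, the next highest by CPM, HOXC12, has 47.5 CPM, and 8 of the 9 HOXD genes are not listed.

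The TALE homeodomain family includes the PBX and MEIS cofactors, which bind DNA with HOX proteins, as well as other factors. Of its 18 genes 11 were listed. IRX3, an Iroquois factor, was highest with 84.9, 101.4 and 96.6 CPM, and at 35.9 CPM per kb it exceeded IRX5 by 1.54 ± 0.16 on the log2 scale. The HOX cofactor genes PBX2 and PBX3 were at 8.79 and 5.84 CPM per kb. PBX2 had 24.95, 39.3 and 20.9 CPM, a wider spread than PBX3 with 16.9, 16.7 and 16.2 CPM, and it lies in the part of chromosome 6 described below, where many values were unsteady. MEIS1, the factor that the study adds to these cells, was at 0.931 CPM per kb, and its range over the libraries overlapped that of PBX4, with which it stood at the low end of the listed TALE genes per kb. MEIS2 was not listed.

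Among nuclear receptors, 34 of 48 were listed. The orphan receptors NR2F6 and ESRRA had 105, 134 and 116 CPM and 88.7, 114 and 89.0 CPM. Per kb they were at 49.7 and 42.7 CPM per kb, and their ranges overlapped. NR3C1, the glucocorticoid receptor, had 58.6, 47.1 and 51.4 CPM. The estrogen and progesterone receptor genes ESR1 and PGR were not listed. All 26 genes of a list of steroid receptor coregulators were listed at 10 CPM or more, from NCOA7 at 16.8 CPM to the chaperone HSP90AA1 with 1752, 1699.5 and 1903 CPM.

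Known androgen targets were broadly present, with 21 of 26 listed and 12 at 100 CPM or more. Besides the kallikreins, FKBP5, a chaperone cofactor induced by androgen, had a mean of 415 CPM, and PMEPA1, an inhibitor of TGF-beta signalling, 313 CPM. STEAP4, ORM1 and ALDH1A3 were among the 5 not listed. Enzymes that make androgen from cholesterol were less complete. STAR, CYP11A1, CYP17A1, HSD3B1, HSD3B2 and HSD17B3, which act from cholesterol to testosterone, were not listed. In all, 22 of 37 genes of androgen synthesis and inactivation were listed. Of the reductases that form dihydrotestosterone, SRD5A1 had 33.1, 33.5 and 32.9 CPM and SRD5A2 was not listed. SRD5A3, which serves protein glycosylation, exceeded SRD5A1 2.68-fold per kb, a log2 ratio of SRD5A1 over SRD5A3 of -1.42 that was -0.55 with the median transcript length. AKR1C3, which reduces androgen precursors, had 18.9, 21.3 and 19.1 CPM. UGT2B15 and UGT2B17, which inactivate androgens by glucuronidation, had 8.40, 4.72 and 7.11 CPM and 0.8496, 0.847 and 0.534 CPM, and these closely related genes share reads.

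The ETS family, whose fusion genes drive many prostate tumors, was led by SPDEF, a factor of secretory epithelium, at 50.4 CPM per kb with 89.0, 105.2 and 94.9 CPM. It exceeded ELK1 by 1.16 ± 0.16 on the log2 scale, and by 0.45 with the median transcript length. With the median transcript length, EHF, another epithelial member, came first in place of SPDEF. ERG and FLI1 were not listed, and ETV1, another fusion partner, had 16.05, 13.53 and 13.57 CPM. Of 28 ETS genes 21 were listed and 15 reached 10 CPM.

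Genes of mitochondria, protein synthesis and protein folding were prominent among those of highest CPM. The 10 genes of highest CPM took 6.91%, 6.71% and 7.62% of the CPM in the 3 libraries, the first 100 took 19.5% ± 0.91 and the first 1000 took 47.8% ± 0.52 (SD, n = 3). By mean level, 13790 genes (98.8%) reached 1 CPM, 10190 (73.0%) reached 10 CPM, 2264 (16.2%) reached 100 CPM and 63 (0.452%) reached 1000 CPM. The middle gene of the list had 29.0 CPM, and the top percent began at 616 CPM. Protein-coding genes numbered 12968 and held 97.3% ± 0.19 of the CPM, and 585 long non-coding RNA genes held 0.949% ± 0.074.

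**Figure D3:**
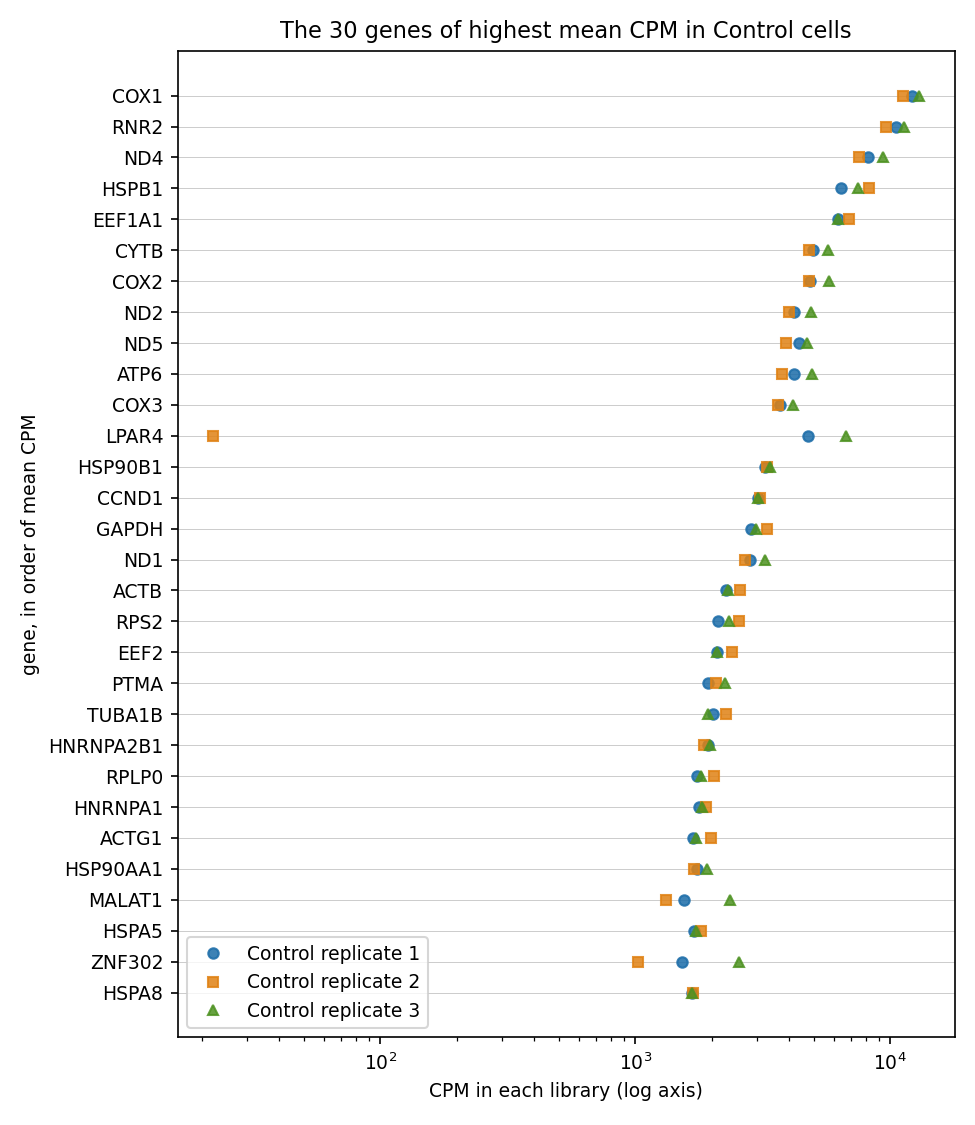
CPM in each Control library (log axis) for the 30 genes of highest mean CPM, in order of the mean, with a symbol for each replicate. For most genes the 3 symbols lie close together, and LPAR4 stands out with 4762, 22.1 and 6697 CPM.

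All 13 protein genes of the mitochondrial genome were listed, and they took 5.42%, 5.04% and 6.08% of the CPM. COX1, encoding a catalytic subunit of cytochrome c oxidase, had the highest CPM of all genes, with 12188, 11210 and 13015 CPM. ND4, a subunit of complex I, had 8189, 7548 and 9340 CPM, and the large ribosomal RNA gene RNR2 had 10521, 9610 and 11362 CPM although RNA was selected by poly(A). Replicate 3 was the highest library for each of these and replicate 2 the lowest. Per kb the 13 genes ran from 1440 CPM per kb for ND3 to 7871 CPM per kb for COX1. ND6, the only one of them on the opposite strand, had 967, 901 and 1149 CPM, and the strand of the reads was not used in the assignment.

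HSPB1, encoding the small heat shock protein HSP27, had 6408, 8230 and 7453 CPM, and at 9477 CPM per kb it was the highest of all genes per kb. All 32 chaperone genes of the list were listed at 10 CPM or more, 9 of them at 1000 CPM or more, and the list took 3.18% ± 0.11 of the CPM (SD, n = 3). HSP90B1 and HSPA5, chaperones of the endoplasmic reticulum, had 3238, 3278 and 3367 CPM and 1694, 1809 and 1725 CPM. HSPA8, the constitutive HSP70, had 1676, 1683 and 1665 CPM, a CV of 0.556%. The cytosolic HSP90 genes were nearly level, with HSP90AB1 above HSP90AA1 by 0.12 ± 0.08 on the log2 scale per kb and overlapping ranges. With the median transcript length that ratio was -2.37.

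All 79 ribosomal protein genes were listed and took 4.94% ± 0.35 of the CPM, with a median of 602 CPM per kb. RPS2 was the highest of them with 2103, 2546 and 2329 CPM, followed per kb by RPL41 at 2169 CPM per kb and RPS27 at 1846 CPM per kb. Their share was 4.61%, 5.31% and 4.91% in the 3 libraries, highest in replicate 2, where the mitochondrial share was lowest. Genes with short transcripts were in general higher in replicate 2. Among genes of at least 10 CPM with transcripts of at most 2518 bases, replicate 2 lay above the mean of the other libraries for 73.8% and replicate 1 for 28.2%. Among those with transcripts of at least 4624 bases the shares were 32.0% and 76.3%. The median shifts were between -0.08 and 0.10 on the log2 scale, and the part of this pattern in the ribosomal share was not tested. The 42 translation factors took 2.42% ± 0.084 of the CPM. EEF1A1, the elongation factor that delivers transfer RNA to the ribosome, had 6266, 6874 and 6226 CPM and exceeded its isoform EEF1A2 7.35-fold per kb, and EEF1A2, known from muscle and neurons, still had 397, 490 and 446 CPM. EEF2, which moves the ribosome along, had 2087, 2396 and 2085 CPM.

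Transcripts of the translation machinery in human cells are known to begin with a run of pyrimidines, the 5′ terminal oligopyrimidine tract, through which their translation is controlled together. Start regions of some abundant genes that hold such a run are shown. Each spans 50 bases before to 20 bases from the start site, after RefSeq on GRCh38.p14. HSPB1, which encodes a chaperone, is among them. The capitals mark a C followed by at least 5 C or T that begins within 5 bases of the start, and the letters TATAAA where they lie 45 to 15 bases before it. The kallikrein pair is shown beside them, with no match to either. GAPDH, TUBA1B, PTMA, HSPA5 and KRT8, also abundant, had no match to either in the window used and are not shown. The table of starts is not complete, so the window used need not hold the main start of a gene. That of GAPDH, chr12:6535214-6535283, lies inside the annotated span of the gene, which begins at 6534512.
RPLP0 (chr12:120201092-120201161, minus strand): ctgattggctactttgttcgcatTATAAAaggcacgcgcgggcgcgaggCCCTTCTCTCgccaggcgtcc
RPL41 (chr12:56116583-56116652, plus strand): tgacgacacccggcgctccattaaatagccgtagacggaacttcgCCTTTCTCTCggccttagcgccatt
EEF1A1 (chr6:73521013-73521082, minus strand): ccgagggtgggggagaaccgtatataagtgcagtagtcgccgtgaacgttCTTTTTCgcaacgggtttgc
EEF2 (chr19:3985444-3985513, minus strand): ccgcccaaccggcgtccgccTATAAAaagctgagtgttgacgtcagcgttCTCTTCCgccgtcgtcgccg
HSPB1 (chr7:76302623-76302692, plus strand): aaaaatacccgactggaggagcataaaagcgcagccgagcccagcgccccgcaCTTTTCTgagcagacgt
KLK3 (chr19:50854865-50854934, plus strand): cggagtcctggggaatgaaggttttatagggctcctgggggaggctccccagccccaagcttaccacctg
KLK2 (chr19:50873389-50873458, plus strand): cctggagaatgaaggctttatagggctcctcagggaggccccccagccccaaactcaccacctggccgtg

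Of the ribosomal protein genes 63 had a promoter in the RefSeq table. Of these, 51 (81.0%) held the pyrimidine start on the strand that matches the transcript. The same pattern was held by 11.1% of 27305 promoters in the table, by 35.5% of those of 31 translation factors and by 11.7% of those of 10939 listed genes. Across genes ordered by CPM per kb and split into 5 bands it was held by 11.5% of promoters in the lowest band. The bands between had 10.1%, 10.9% and 11.3%, and the highest, which began at 28.2 CPM per kb, had 14.5%. Ribosomal protein genes, with a median of 602 CPM per kb, were not left out of the bands. The letters TATAAA stood in the window of 2.73% of all promoters, of 1.62% of listed genes and of 2.10% of the highest band. Promoters of listed genes had a median GC content of 66.3% and 27 CpG, against 59.0% and 15 in the table as a whole. The KLK3 and KLK2 promoters, of 300 bases each, held 2 and 3 CpG. They shared an identical run of 80 bases, which began 154 bases before the start of KLK3 and 160 before that of KLK2 and was in no other of the 27305 promoters. A match is a description of letters in these windows and was not tested as a site.

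Growth and division genes stood high. CCND1, encoding cyclin D1, had 3041, 3086 and 3019 CPM and led the cell cycle list, with 719 ± 8.04 CPM per kb (SD, n = 3). It exceeded CCND3 43.0-fold per kb, and CCND2 was not listed. Its partner kinase CDK4 had 220.5, 263 and 226 CPM and exceeded CDK6 38.5-fold per kb, with CDK6 spread from 31.4 to 47.5 CPM. The log2 ratio of CDK4 over CDK6, 5.27 ± 0.43, was 2.63 with the median transcript length. MKI67, the proliferation marker, had 677, 615 and 652 CPM, and MCM7, a subunit of the replicative helicase, had 571, 639 and 581 CPM. The inhibitor gene CDKN2A had 43.0, 53.2 and 44.1 CPM and RB1, the tumor suppressor that cyclin D kinases inactivate, had 106.4, 88.9 and 88.4 CPM. MYC had 346, 389 and 340 CPM, exceeding MYCL 62.2-fold per kb, and MYCN was not listed. Of 41 listed cell cycle genes 39 reached 10 CPM, a level that 73.0% of all listed genes reached.

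Among other genes mutated or lost in prostate cancer, 36 of 39 were listed. A level in CPM says nothing of the sequence that a gene carries. DNA repair genes included PARP1, the sensor of strand breaks, with 1074, 1099 and 1072 CPM, BRCA1 with 164, 144 and 145 CPM and BRCA2 with 47.8, 33.3 and 40.9 CPM. PARP1 was the highest of the 30 listed repair genes at 272 CPM per kb. MGMT, which repairs alkylated guanine, was not listed.

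Other abundant genes belonged to the cytoskeleton, to RNA processing and to chromatin. ACTB, encoding beta-actin, had 2262, 2578 and 2312 CPM and exceeded ACTG1 1.41-fold per kb. TUBA1B, the main alpha-tubulin gene, had 2018, 2263 and 1920 CPM and exceeded TUBA1C 11.3-fold per kb. The actin and tubulin list, with 19 of 22 genes listed, took 0.913% ± 0.068 of the CPM (SD, n = 3). Splicing factors took 1.47% ± 0.015, with 40 of 41 listed, and were led by HNRNPA2B1 with 1928, 1868 and 1961 CPM and HNRNPA1 with 1772, 1886 and 1831 CPM, both of which package nascent RNA. PTBP1 exceeded its neuronal relative PTBP2 24.9-fold per kb. All 41 chromatin regulators were listed at 10 CPM or more. The Polycomb methyltransferase EZH2 exceeded EZH1 6.43-fold per kb, and the maintenance DNA methyltransferase DNMT1 exceeded DNMT3A 6.41-fold. These log2 ratios, 2.69 and 2.68, were 0.37 and 1.33 with the median transcript length. PTMA, encoding the nuclear protein prothymosin alpha, had 1930, 2071 and 2241 CPM. TMSB10, encoding an actin-binding thymosin, had 2696 CPM per kb. PEG10, an imprinted gene of retroviral origin, had 1598, 1384 and 1390 CPM, and APLN, encoding the peptide hormone apelin, had 1248, 1433 and 1262 CPM, and these genes, with TMSB10, were named after their values were seen.

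Of 34 proteasome genes 32 were listed, all of them at 10 CPM or more, and PSMB4 was the highest at 326 ± 23.9 CPM per kb (SD, n = 3). Of 29 apoptosis genes 27 were listed. The survival gene MCL1 had 377, 355 and 356 CPM and exceeded BCL2 39.8-fold per kb, and BCL2L1 exceeded BCL2 7.40-fold. BIRC5, encoding survivin, had a mean of 152 CPM with an SD of 11.3 CPM. Of 42 matrix and proteoglycan genes 30 were listed, led per kb by TIMP1, an inhibitor of matrix proteases, at 66.9 CPM per kb, and by the proteoglycan gene SPOCK1 with 189.0, 179 and 174 CPM.

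Metabolic isozymes differed in level. LDHB, the lactate dehydrogenase subunit of oxidative tissues, had 994, 1081 and 1023 CPM and LDHA had 498, 519 and 498 CPM, and LDHB exceeded LDHA 3.52-fold per kb with an SD of 0.03 on the log2 scale. The log2 ratio of LDHA over LDHB, -1.81, was -1.08 with the median transcript length. GAPDH had 2853, 3282 and 2981 CPM. HK1 exceeded HK2 2.23-fold per kb, and PFKM and PFKL exceeded PFKP 13.1-fold and 12.7-fold. ALDOA exceeded ALDOC 22.5-fold. PGAM1 exceeded PGAM2 1.29-fold, and this order turned with the union of all exons, at a log2 ratio of -0.13. The log2 ratio of HK2 over HK1, -1.15, was -0.29 with the union of all exons. All 28 genes of the citrate cycle list were listed, led by CS, the citrate synthase, with 728, 738 and 692 CPM. IDH1 exceeded IDH2 3.87-fold per kb, a log2 ratio of 1.95 that was 1.00 with the union of all exons.

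**Figure D4:**
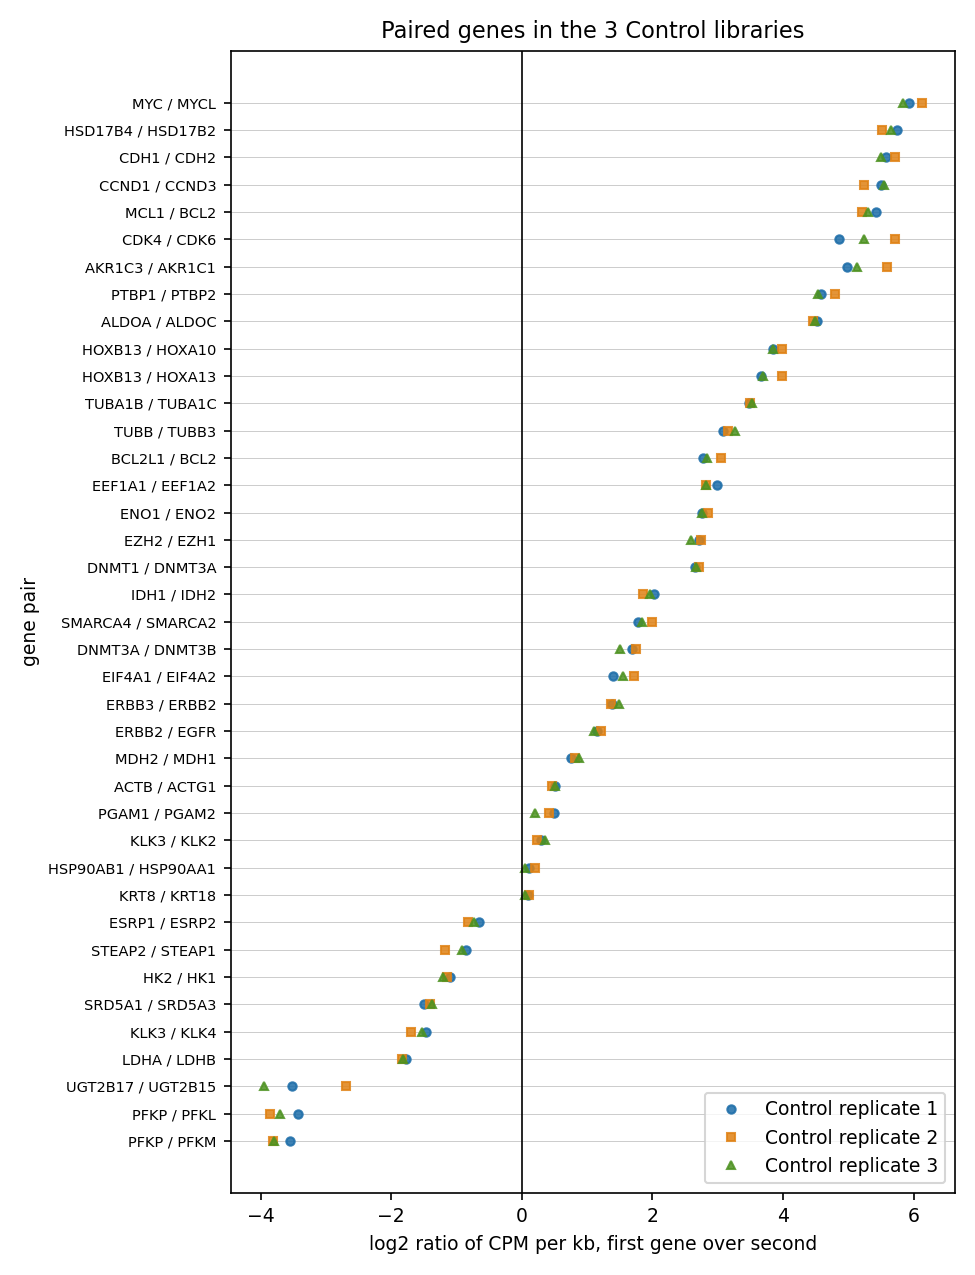
Log2 ratio of CPM per kb of the first gene over the second for the 39 gene pairs with both genes above 0, with a symbol for each Control library. Ratios run from -3.71 for PFKP over PFKM to 5.96 for MYC over MYCL, and for 37 pairs the ranges of the genes over the libraries are apart.

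Lipid synthesis was represented in full, with 30 of 30 genes listed and 29 at 10 CPM or more. FASN, the fatty acid synthase, had 1468, 1729 and 1465 CPM, and SCD, which desaturates its products, had 729, 748 and 714 CPM. FDPS, an enzyme of the mevalonate pathway, was highest per kb at 275 CPM per kb. AMACR, a diagnostic marker of prostate carcinoma, was low at 3.37 CPM per kb. Polyamines and zinc are abundant in normal prostate secretion, and 11 of 13 polyamine genes and 21 of 29 zinc and metallothionein genes were listed. ODC1 and AMD1, enzymes of polyamine synthesis, had 261, 270.1 and 243 CPM and 514, 450 and 458 CPM. The zinc importers SLC39A1 and SLC39A6 were at 106 and 99.3 CPM per kb. MT2A, a zinc-binding metallothionein, had 20.8, 29.6 and 25.6 CPM, values not scaled by length that cannot be set against those of the importers.

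Among receptor tyrosine kinases EPHA3, an ephrin receptor, was the highest, with 796, 651 and 657 CPM and 123 ± 14.3 CPM per kb (SD, n = 3). It exceeded ERBB3 by 1.90 ± 0.16 on the log2 scale. ERBB3 had 184.5, 183 and 185 CPM, EGFR had 56.3, 54.3 and 53.5 CPM, and MET, the receptor of hepatocyte growth factor, had 11.3, 12.2 and 11.98 CPM. ERBB3 exceeded ERBB2 2.66-fold and ERBB2 exceeded EGFR 2.23-fold per kb, with log2 ratios of 1.41 and 1.16 that fell to 0.68 with the median transcript length and 0.66 with the union of all exons. Of 58 kinases of this class 37 were listed. The surface proteins used as therapy targets in prostate cancer were uneven. FOLH1 and STEAP1 had 151 and 132 CPM per kb, CD46 121 CPM per kb and CD276, known as B7-H3, 49.5 CPM per kb, while PSCA was not listed and DLL3 was at 0.770 CPM per kb. Integrins were led by ITGB1 at 59.3 CPM per kb, ahead of ITGB5 at 26.8 CPM per kb. This order turned with both other length measures, at log2 ratios of -0.26 and -1.37. ITGB4, the partner of ITGA6 in basal cell anchoring, was at 0.555 CPM per kb.

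Genes of antigen presentation and interferon response formed 1 list, with a median of 4.78 CPM per kb against 8.63 for all listed genes with a length. Not all presentation genes lay under the latter value, as HLA-C was at 22.8 CPM per kb, while HLA-B was just under it at 8.37. B2M, the shared light chain of class I molecules, had 77.5, 77.0 and 71.9 CPM, and HLA-B and HLA-C had means of 12.9 and 35.2 CPM. The immunoproteasome genes PSMB8 and PSMB9 and the immune checkpoint gene CD274 were not listed, and among interferon-induced genes IFIT1 and MX1 were at 1.06 and 4.61 CPM, while OAS3 had 119.6, 116 and 107.2 CPM and ISG15 39.5 CPM. Outside this list, and chosen after its values were seen, the class II gene HLA-DQB1 had 332, 371 and 354 CPM, far above its partner HLA-DQA1 with 26.9, 20.1 and 30.3 CPM. HLA-DRA was not listed, and the class II activator CIITA was at 3.31 CPM. HLA genes differ between people and from the reference, so that reads may be missed or assigned to a relative.

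By CPM, MALAT1, a nuclear RNA, led the non-coding genes with 1559, 1318 and 2356 CPM. It was followed by NORAD with 393, 348 and 356 CPM, LRRC75A-AS1 with 336, 384 and 327 CPM, NEAT1 with 244, 199.9 and 248 CPM, and GAS5 with 185, 184 and 189.6 CPM. FGD5-AS1, NSUN5P1, LINC01694, DUXAP8 and LINC00665 completed the first 10, with means from 184 to 105 CPM. Per kb the order was another, with LRRC75A-AS1 at 788, GAS5 at 243, MALAT1 at 167 and NEAT1 at 10.1 CPM per kb. The prostate cancer transcripts PCA3, SCHLAP1, PCAT14, PCGEM1 and ARLNC1 were not listed, PCAT1 was at 1.84 CPM and PART1, another androgen-regulated transcript, at 12.5 CPM. MALAT1 varied with a CV of 31.2%, against 1.56% for GAS5.

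The 3 libraries resembled each other, with correlations of log2 values across genes between 0.990 and 0.993 as a description, since genes are not independent replicates. The median CV fell from 28.3% for genes under 1 CPM to 6.89% for those from 10 to 100 CPM and 5.69% for those from 100 to 1000 CPM, and was 7.44% for genes of at least 1000 CPM. LPAR4, encoding a receptor for lysophosphatidic acid, varied most among genes of at least 1000 CPM. It had 4762 and 6697 CPM in replicates 1 and 3 and 22.1 CPM in replicate 2, so its mean describes none of the libraries. ZNF302 had 1524, 1027 and 2544 CPM. FGF23, a hormone of phosphate balance named here after its values were seen, had 101, 67.9 and 205 CPM. In each of these genes replicate 3 was highest and replicate 2 lowest, an order that COX1, RNR2, ND4 and MALAT1 shared. Of the 63 genes of at least 1000 CPM, 36 were highest in replicate 2 and 22 in replicate 3. FGF23 lies in the band from 100 to 1000 CPM, where 237 of 2201 genes were highest in replicate 3.

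**Figure D5:**
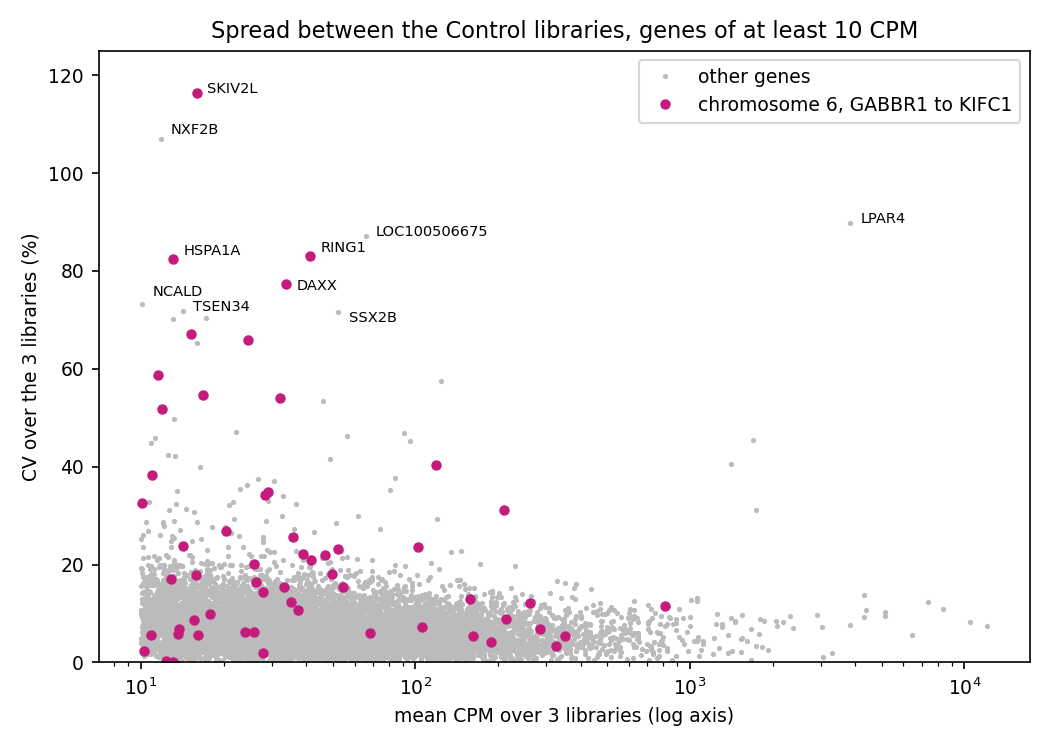
Coefficient of variation (CV) over the 3 Control libraries in percent against mean CPM (log axis) for the 10190 genes of at least 10 CPM, with the 10 of largest CV named. Magenta points are the 57 genes on chromosome 6 from GABBR1 to KIFC1, which have a median CV of 16.3%, and grey points are all others, with a median of 6.60%.

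Many of the unsteady genes lay together. Of the 10 genes of largest CV at 10 CPM or more, 4 lay within the major histocompatibility complex, taken as chromosome 6 from 29555629 to 33409896 on GRCh38 (GABBR1 to KIFC1), as did 9 of the first 20 and 21 of the first 100. This region was chosen after the data were seen. SKIV2L, encoding an RNA helicase, had 1.72, 37.1 and 9.22 CPM, RING1, a Polycomb protein gene, had 54.8, 66.7 and 2.33 CPM, and DAXX, a histone chaperone gene, had 3.65, 50.6 and 46.9 CPM. The library that was lowest differed from gene to gene. HSPA1A had 0.868, 21.3 and 17.2 CPM, while its near-identical neighbour HSPA1B had 262, 299.0 and 289 CPM, and their sum had a CV of 10.1%, against 6.74% for HSPA1B alone. Other genes of largest CV were members of near-identical pairs on chromosome X. SSX2 had 42.2, 108 and 122 CPM and SSX2B had 95.8, 31.7 and 29.8 CPM, and their sum, 138.0, 139.8 and 152 CPM, had a CV of 5.30% against 47.0% and 71.6% for the genes alone. NXF2 and NXF2B, with CVs of 70.3% and 107%, summed to 29.0 CPM with a CV of 11.5%. Sums were not always steadier, as SLX1A with SLX1B had a CV of 19.8% against 11.7% for SLX1A, and RGPD5 with RGPD8 21.7% against 8.97% for RGPD8. NCALD, TSEN34 and LOC100506675 completed the 10, with CVs of 73.3%, 71.7% and 87.2%. The assignment of reads between copies and its part in these values was not tested.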

How the data were processed

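RNA-seq values of the 3 Control libraries were used, and the files of the other 9 libraries were left out because no contrast was made. The deposited values are CPM made by the authors. Reads were demultiplexed with CASAVA 1.8, trimmed with Trimmomatic 0.38 and assigned to Ensembl transcripts of GRCh38 with kallisto 0.43.1 without use of strand, the estimated counts were summed to genes, genes were kept if they had 10 counts in enough samples of at least 1 group, and libraries were normalised in edgeR 3.22.2 (versions per the submitters' processing notes). Estimated counts are not whole, and count tests were not used: between 48.5% and 54.7% of values under 1 CPM lay within 0.1 of a whole number of steps.

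Of 13993 rows, 42 exact repeats were dropped. GENCODE 44 held 13670 of the symbols (98.0%), where 448 were found by a former name and 15 mitochondrial genes by position, and CPM per kb used the length of the canonical transcript. Means, SD and CV are over 3 libraries, log2 ratios were taken within each library, and log2 spread used a pseudocount of 0.5 CPM. Named genes are the 30 of highest mean CPM, the key and highest members of 41 lists and 45 pairs, those members not listed, the 10 highest non-coding genes and the 10 of largest CV at 10 CPM or more. Members and lists were chosen with earlier results of these data known. Some further list members, the pairs of near-identical copies, the region on chromosome 6 and the comparison by transcript length were chosen after the values were seen. Promoters are RefSeq's, 300 bases each, 250 before the start and 50 from it. Of 35116 starts in the table, which is not complete, the one nearest the canonical transcript was kept for each gene. Alternatives were other scalings, lengths, centres, pseudocounts and filters, all rows kept, and each library left out. The step, spread and motif code was tested on simulated data, with Python 3.11.15, numpy 2.4.6, pandas 2.3.3 and matplotlib 3.10.9. Some genes of the lists are not reported here.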

Additional observations from a re-analysis of the deposited data

How the results depend on the processing

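No paired analysis was possible because a single group was described and no test was made. Of the recomputed main values, counts and shares, 399 stayed within the spread between libraries or within 1.5 times the count, 12 moved further and none changed direction. Many of them could not move. A share does not change when its library is rescaled. With 3 libraries, a median share or a mean share with 1 library left out always lies within 1 SD of the mean. Leaving 1 library out could likewise not move the log2 ratios of gene pairs given below. The log2 ratio of the luminal median over that of the next marker list was 3.57, and it was 3.60 with the median over libraries, 3.23 with lengths from the union of all exons and 1.56 with the median transcript length. The median SD of log2 CPM over genes was 0.109, and 0.0793 to 0.1096 with 1 library left out. The lowest correlation between libraries was 0.988 with a pseudocount of 0.1 CPM, and 0.990 to 0.993 with 1 library left out. An alternative added after the data were seen left out the genes from GABBR1 to KIFC1. The antigen presentation and interferon list then took 0.0609% of the CPM, and the actin and tubulin list 0.829%. The nuclear receptors took 0.164% and the TALE genes 0.0255%. With the first promoter row of each gene, also added later, ribosomal protein genes held the pyrimidine start in 74.6%. Among values of single genes, pairs and list medians, 250 stayed, 88 moved and 10 changed sign, the last all with another length measure and counting KRT8 over KRT18 both as a pair and as neighbours in its family. With the union of all exons these were KRT8 over KRT18 at -0.74, ITGB1 over ITGB5 at -0.26, KLK3 over KLK2 at -0.21 and PGAM1 over PGAM2 at -0.13. With the median transcript they were ITGB1 over ITGB5 at -1.37, KLK3 over KLK2 at -0.87, HSP90AB1 over HSP90AA1 at -2.37, SMARCA4 over SMARCA2 at -0.40 and STEAP2 over STEAP1 at 0.49. The highest gene was kept in 5 of 7 families with either measure. Only the length differs between these settings. Values at or under 0.175 CPM carry few reads, and the SD covers cultures of 1 line.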
